A study of Homo sapiens with 8 samples.

Results

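The circadian clock output genes described here were 10 genes found by symbol in the deposited count tables of 22RV1 and DU145 cells: the period genes PER1, PER2 and PER3, the cryptochrome genes CRY1 and CRY2, the nuclear receptor genes NR1D1 and NR1D2, and DBP, TEF and BHLHE40. All 10 were among the 58828 genes listed and all 10 passed the filter on low counts that left 19784 genes for testing. RNA was sequenced from 22RV1 and DU145, established human prostate cancer cell lines, which were transduced with an empty control vector or with HA-tagged PAGE4 under a doxycycline-inducible promoter. PAGE4 is an intrinsically disordered protein linked to stress protection in prostate cells. The lentiviral lines were puromycin-selected pools, every culture had received doxycycline, and each was then given PBS or 200 mM H2O2 for 12 h, the dose in the labels and methods, whereas the study names a lower dose for other mRNA measurements. The 2 lines, 2 constructs and 2 treatments made 8 conditions with 1 library each. A test therefore could not draw its error from repeats of a condition. The edgeR error came from the spread between pairs of libraries, moderated with that of the other genes tested. Small p-values thus rest in part on this sharing over genes, and not on the few pairs of a gene alone. The sources used here do not state the time of day at collection, or that the cultures had been brought into a common clock phase.

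The circadian clock is a loop of transcription and repression that runs in most cells with a period of about a day. The CLOCK and BMAL1 proteins bind E-box elements and switch on the period and cryptochrome genes, whose proteins then hold CLOCK and BMAL1 back. The same activators drive NR1D1 and NR1D2, which encode the REV-ERB repressors of BMAL1, and DBP and TEF, which encode activators that bind D-box elements. BHLHE40 encodes DEC1, a repressor that competes for E-boxes.

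The promoter windows are shown for PER2 and DBP, which passed the H2O2 test common to both lines under every alternative tried, and for PER1, NR1D2, TEF and BHLHE40, whose H2O2 response differed between the lines. They are the 250 bases before a RefSeq transcript start on GRCh38.p14, written 5' to 3' on the gene's strand, with matches to the searched motifs in capitals. The motifs were the E-box CACGTG, its variant CACGTT, the D-box TTANGTAA, the cyclic AMP element TGACGTCA and the REV-ERB and ROR element TNGGTCA, each searched on both strands. For PER1 and PER2 the window ran over annotated exons, so only 30 bases around the match are given.
PER1, chr17:8152560-8152589, minus strand: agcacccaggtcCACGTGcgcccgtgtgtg
PER2, chr2:238288790-238288819, minus strand: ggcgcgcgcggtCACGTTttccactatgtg
NR1D2, chr3:23945871-23946120, plus strand: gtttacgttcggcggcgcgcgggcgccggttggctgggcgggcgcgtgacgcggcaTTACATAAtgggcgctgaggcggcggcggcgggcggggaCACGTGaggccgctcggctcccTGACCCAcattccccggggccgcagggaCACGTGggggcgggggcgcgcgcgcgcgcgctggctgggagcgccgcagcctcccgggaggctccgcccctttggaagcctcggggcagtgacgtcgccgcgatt
TEF, chr22:41381692-41381941, plus strand: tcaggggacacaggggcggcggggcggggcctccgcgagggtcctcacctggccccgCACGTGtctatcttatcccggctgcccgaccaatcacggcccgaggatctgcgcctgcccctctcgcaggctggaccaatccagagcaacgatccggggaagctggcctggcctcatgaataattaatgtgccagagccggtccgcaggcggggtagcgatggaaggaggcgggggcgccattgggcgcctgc
BHLHE40, chr3:4979187-4979436, plus strand: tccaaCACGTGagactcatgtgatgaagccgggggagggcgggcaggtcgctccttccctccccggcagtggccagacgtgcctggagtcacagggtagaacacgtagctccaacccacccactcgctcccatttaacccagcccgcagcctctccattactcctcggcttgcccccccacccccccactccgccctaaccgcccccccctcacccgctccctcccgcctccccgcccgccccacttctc
DBP, chr19:48637380-48637629, minus strand: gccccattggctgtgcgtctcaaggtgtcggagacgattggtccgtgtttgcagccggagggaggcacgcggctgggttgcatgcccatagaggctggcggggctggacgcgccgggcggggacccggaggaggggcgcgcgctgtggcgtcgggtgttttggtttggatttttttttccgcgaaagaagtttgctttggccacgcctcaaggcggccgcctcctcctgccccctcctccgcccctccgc
The NR1D2 window shown held 2 E-boxes, 1 D-box and 1 REV-ERB and ROR element, with no match lying over another. The other NR1D2 window, chr3:23945036-23945285, before a start further upstream, held none of the searched letters. PER1, TEF and BHLHE40 each had 1 E-box in the stretch shown and PER2 had 1 CACGTT, while the DBP window had none of the searched letters. Over 14 windows of the 10 genes, the E-box was found for 4 genes (PER1, NR1D2, TEF and BHLHE40) and CACGTT for 4 (PER2, CRY1, CRY2 and NR1D1). The D-box was found for PER3 and NR1D2, the REV-ERB and ROR element for CRY2 and NR1D2, and the cyclic AMP element for 0 genes. Counted by window, 5 of the 14 held the E-box, 4 CACGTT, 2 the D-box, 0 the cyclic AMP element and 2 the REV-ERB and ROR element. Among 35116 windows of the same length, 6.34% held the E-box, 4.55% CACGTT, 1.98% the D-box, 1.65% the cyclic AMP element and 8.16% the REV-ERB and ROR element. A match is a match of letters only.

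Total counts ranged from 25482984 to 43310401 per library. PAGE4 was at 0 or 1 counts in the 4 vector libraries and at 1001 to 1489 counts in the 4 PAGE4 libraries. H2O2 raised all 4 genes checked for an oxidative stress response (HMOX1, SRXN1, TXNRD1 and GCLM) in 22RV1 cells, HMOX1 by 4.41 on the log2 scale, whereas in DU145 cells TXNRD1 and GCLM passed the test and HMOX1 changed by 0.35 (adjusted p = 0.15, edgeR). Summed normalised counts of 8 luminal prostate genes were 64233 to 68397 in the 22RV1 libraries with PBS, 23267 to 31927 in those with H2O2 and 1084 to 1237 in DU145 cells, where KLK2, KLK3, TMPRSS2 and FOLH1 were at 3 counts or fewer. Of 7 stroma and leukocyte markers, COL1A1 alone had a mean normalised count of 10 or more, and the summed level of the list was 285 to 391 with PBS and 602 to 843 with H2O2 in 22RV1 cells, against 295 to 296 and 198 to 210 in DU145 cells. The share of mitochondrial counts was 8.97% to 16.5% and was higher with PBS than with H2O2 in each of the 4 pairs. The part of these shifts in the results on the clock genes was not tested, and in bulk RNA fewer cells of a type and less RNA per cell cannot be told apart.

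Between the cell lines, the period and cryptochrome genes PER1, PER2, CRY1 and CRY2 were higher in 22RV1 cells, BHLHE40 and NR1D1 were higher in DU145 cells, and NR1D2, DBP and PER3 did not pass the test. Values below are normalised read counts, that is counts divided by the DESeq2 size factor of the library, given as mean ± SD over the 4 libraries of a line. Those 4 libraries are 4 different conditions, so the SD includes differences between treatments and constructs and is not a spread of replicates. PER2 was at 1572 ± 518 (SD, n = 4) in 22RV1 cells and 116 ± 37.6 (SD, n = 4) in DU145 cells, a ratio of 13.6. The corresponding means were 942 ± 201 and 137 ± 29.2 for CRY1, a ratio of 6.89. CRY2 stood at 1075 ± 188 against 206 ± 43.5, a ratio of 5.21, and PER1 at 2140 ± 140 against 476 ± 168, a ratio of 4.50. The products of all 4 genes form the PER and CRY repressor complexes. In the opposite direction, BHLHE40 had 20.5 ± 11.7 in 22RV1 cells and 2080 ± 978 in DU145 cells, 101 times as much, and NR1D1 had 118 ± 45.0 and 737 ± 125, 6.24 times as much. For these 6 genes no 22RV1 library overlapped a DU145 library. The share of all genes without such overlap was not computed, and 63.2% of all genes tested differed between the lines (edgeR). NR1D1 shares exon bases with THRA, which was also higher in DU145 cells, as given below.

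In the edgeR test with the 4 pairs of matched libraries as blocks, 7 of the 10 genes differed between the lines (adjusted p under 0.05), against 63.2% of all genes tested, so the share called was close to that of the table. The log2 difference, 22RV1 over DU145, was 3.76 ± 0.16 (SE) for PER2 (adjusted p = 1.6e-06), 2.79 for CRY1, 2.40 for CRY2 and 2.24 for PER1, and it was -6.60 ± 0.57 for BHLHE40 (adjusted p = 4.3e-05) and -2.69 for NR1D1. TEF was 0.93 higher (adjusted p = 0.028), but its libraries overlapped between the lines and the adjusted p was 0.059 without the pair of vector libraries with H2O2 and 0.053 without the pair of PAGE4 libraries with H2O2. NR1D2 differed by 0.02 with a 95% interval of -0.34 to 0.39, DBP by 0.50 (-0.15 to 1.15) and PER3 by -0.50 (-1.25 to 0.25), none past the test. The median of the 10 differences was 0.71, against 0.07 over all genes.

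Levels of different genes were compared per kilobase of exon. In 22RV1 cells the order of mean normalised count per kilobase was PER1 (306), NR1D2 (261), PER2 (222), CRY1 (197), CRY2 (173), TEF (74.3), NR1D1 (44.9), DBP (24.7), BHLHE40 (5.84) and PER3 (5.56). The ranges of neighbours overlapped down to CRY2, CRY2 and TEF did not overlap, and neither did DBP and BHLHE40. In DU145 cells the order was BHLHE40 (592), NR1D1 (280), NR1D2 (269), PER1 (68.0), TEF (40.4), CRY2 (33.3), CRY1 (28.6), DBP (18.9), PER2 (16.4) and PER3 (8.50). There the range of BHLHE40 did not overlap that of NR1D1 but did overlap that of NR1D2 (337 to 861 against 183 to 377), and NR1D2 did not overlap PER1. These orders are of means over PBS and H2O2 libraries, and single libraries departed from them. In 22RV1 cells with H2O2, PER2 (292) was above PER1 (277) in vector cells and NR1D2 (319) above PER1 (307) in PAGE4 cells. In DU145 PAGE4 cells with H2O2, NR1D2 (377) was above BHLHE40 (337). BHLHE40 was below PER3 in both 22RV1 libraries with PBS.

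**Figure D1:**
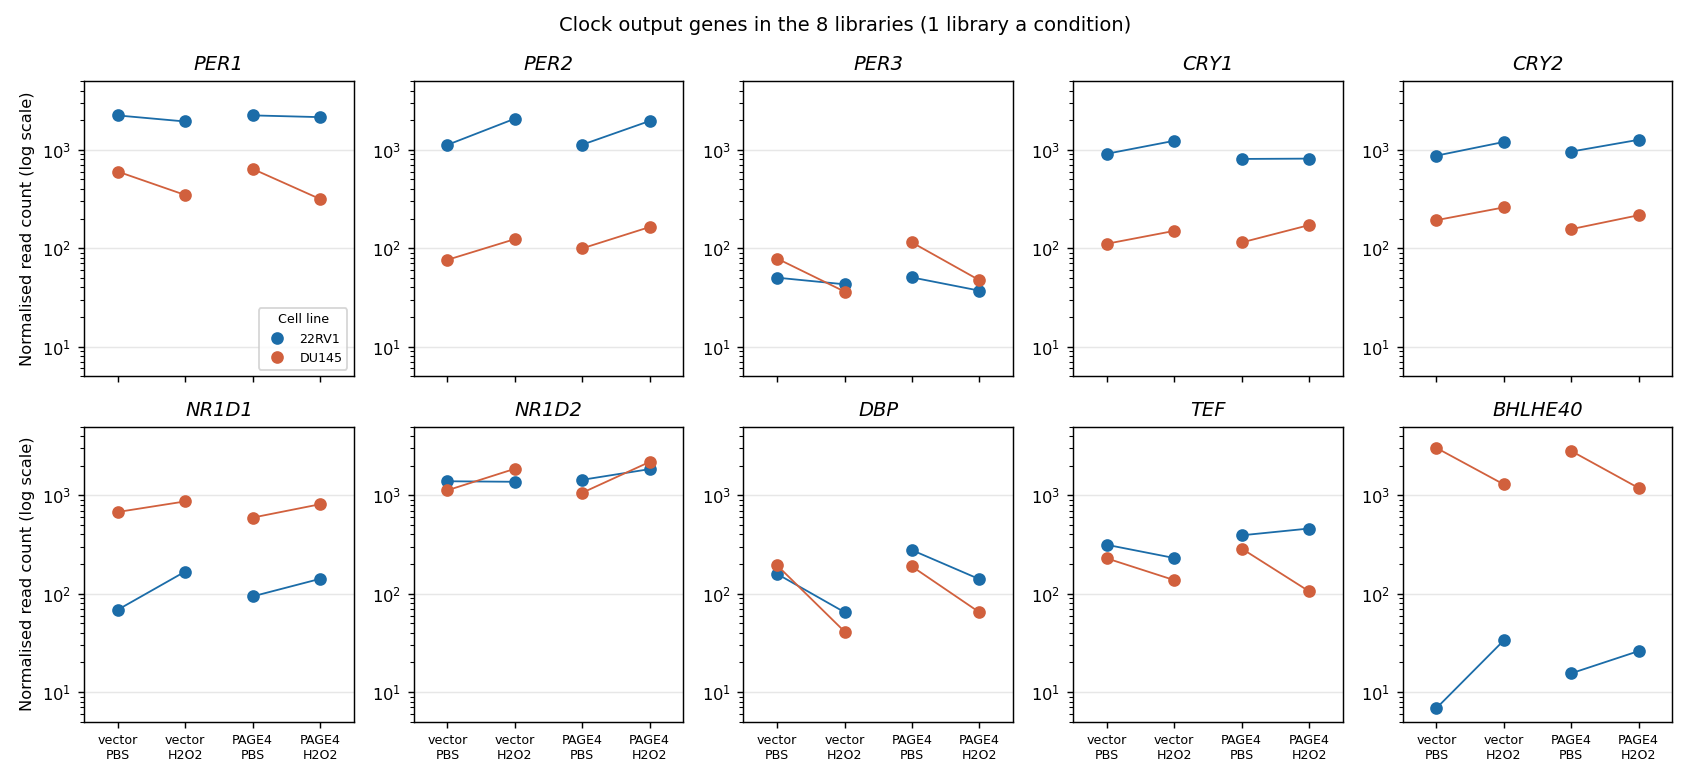
Normalised read count (log scale) of each of the 10 genes in the 8 libraries, 1 point a library, with lines joining PBS and H2O2 of the same construct. PER1, PER2, CRY1 and CRY2 lie higher in every 22RV1 library, BHLHE40 and NR1D1 in every DU145 library, and DBP falls along all 4 lines.

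Treatment with H2O2 was compared with PBS first over both lines. With H2O2, PER2, CRY1, CRY2 and NR1D1 were higher and PER1, PER3 and DBP lower in all 4 pairs of libraries. In the edgeR test of a change common to both lines, 4 of the 10 genes passed, against 23.0% of all genes tested. Of these, 3 rose (PER2, CRY2 and NR1D1; 10.2% of all genes rose) and 1 fell (DBP; 12.7% fell). The median log2 change of the 10 genes was -0.06, close to -0.04 over all genes, since members moved both ways.

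Among the repressors, PER2 in 22RV1 cells was at 1123 in vector cells with PBS and 2073 with H2O2, and at 1128 and 1965 in PAGE4 cells. In DU145 cells the counts were 76.2 and 124 in vector cells and 99.7 and 164 in PAGE4 cells. Each library with H2O2 was above both PBS libraries of its line, and the common log2 change was 0.79 ± 0.11 (adjusted p = 0.0046, edgeR), with 0.87 in 22RV1 cells and 0.69 in DU145 cells. PER1 moved otherwise. It was at 2235 and 1940 in 22RV1 vector cells with PBS and H2O2, and at 2238 and 2148 in PAGE4 cells, a change of -0.11 ± 0.10 (adjusted p = 0.46). In DU145 cells it fell from 601 to 347 in vector cells and from 640 to 316 in PAGE4 cells, by 0.93 ± 0.12 on the log2 scale (adjusted p = 4.1e-06). The ratio of PER2 reads to PER1 reads within a library, which needs no scaling, went from 0.502 with PBS to 1.07 with H2O2 in 22RV1 vector cells and from 0.504 to 0.915 in PAGE4 cells. In DU145 cells it went from 0.127 to 0.356 and from 0.156 to 0.520. The ratio was thus higher with H2O2 in all 4 pairs.

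PER3, the period gene with the lowest mean per kilobase in each line, was at 50.2 and 43.0 in 22RV1 vector cells with PBS and H2O2 and at 50.5 and 37.0 in PAGE4 cells. It was at 78.5 and 36.2 in DU145 vector cells and at 114 and 47.3 in PAGE4 cells, and it passed the test in DU145 cells, where it fell by 1.22 ± 0.36 (adjusted p = 0.0091). Per kilobase, PER3 and PER2 were close in the DU145 libraries with PBS, at 9.65 and 10.8 in vector cells and at 14.07 and 14.06 in PAGE4 cells. CRY2 went from 872 to 1202 and from 960 to 1265 in 22RV1 cells, and from 193 to 260 and from 156 to 217 in DU145 cells. Its changes were of like size, 0.45 and 0.43 on the log2 scale, and the common change was 0.44 ± 0.11 (adjusted p = 0.027). CRY1 was at 911 and 1235 in 22RV1 vector cells with PBS and H2O2, but at 808 and 814 in PAGE4 cells, a change of 0.25 (adjusted p = 0.19). In DU145 cells CRY1 was at 111 and 150.0 in vector cells and at 114 and 172 in PAGE4 cells, a rise of 0.49 ± 0.19 (adjusted p = 0.043).

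The REV-ERB genes were both higher with H2O2 in DU145 cells, and NR1D1 passed the common test (0.65 ± 0.19, adjusted p = 0.042). NR1D1 was at 68.7 and 168 in 22RV1 vector cells with PBS and H2O2, and at 94.0 and 142 in PAGE4 cells, a rise of 0.97 ± 0.20 (adjusted p = 0.00078). In DU145 cells its counts were 677 and 867 in vector cells and 593 and 811 in PAGE4 cells, a change of 0.38 ± 0.16 (adjusted p = 0.068). Exons of NR1D1 share 473 bases, 18.0% of its exon length, with THRA on the opposite strand, and since the strand setting of the counting is not given in the sources used here, reads there cannot be told apart. THRA itself was at 467 to 506 with PBS and 245 to 292 with H2O2 in 22RV1 cells, and at 1401 to 1604 and 877 to 957 in DU145 cells. With H2O2 it thus went the other direction from NR1D1, but between the lines it went the same direction, higher in DU145 cells. The part of shared reads in the line difference and the per-kilobase level of NR1D1 was not tested. NR1D2 was at 1389 and 1372 in 22RV1 vector cells and at 1437 and 1846 in PAGE4 cells, a change of 0.19 (adjusted p = 0.20). In DU145 cells it rose from 1125 to 1861 in vector cells and from 1062 to 2187 in PAGE4 cells, by 0.86 ± 0.11 (adjusted p = 4.9e-06).

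The D-box activator gene DBP fell in both lines. It was at 159 in 22RV1 vector cells with PBS and 64.9 with H2O2, and at 277 and 141 in PAGE4 cells. In DU145 cells the counts were 194 and 41.2 in vector cells and 189 and 64.7 in PAGE4 cells. Every library with H2O2 was below every PBS library of its line, and the common change was -1.48 ± 0.25 (adjusted p = 0.008, edgeR), with -1.11 in 22RV1 cells and -1.89 in DU145 cells. DBP shares 661 exon bases, 10.2% of its exon length, with SPHK2 on the opposite strand, and reads there cannot be told apart either. SPHK2 was at 850 to 859 with PBS and 771 to 853 with H2O2 in 22RV1 cells. In DU145 cells it was at 417 to 418 with PBS and 605 to 612 with H2O2, the other direction from DBP. The part of shared reads in the level of DBP was not tested. The related TEF was at 314 and 231 in 22RV1 vector cells with PBS and H2O2, and at 392 and 460 in PAGE4 cells, so the constructs went opposite ways and the change was -0.08 (adjusted p = 0.81). In DU145 cells TEF went from 229 to 137 and from 288 to 106, a fall of 1.11 ± 0.23 (adjusted p = 0.00062).

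BHLHE40 changed in opposite directions. In DU145 cells, where it had the highest mean per kilobase of the 10 genes, it fell from 3029 to 1290 in vector cells and from 2819 to 1185 in PAGE4 cells, by 1.26 ± 0.13 on the log2 scale (adjusted p = 1.5e-07). In 22RV1 cells it rested on 10 and 43 raw counts in vector cells with PBS and H2O2, and on 20 and 24 in PAGE4 cells. The log2 change there was 1.49 ± 0.33 (adjusted p = 0.0016), but 0.76 with an adjusted p of 0.27 without the vector pair, and the counting interval of the PAGE4 pair, -0.17 to 1.68, included 0.

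By line, H2O2 changed 5 of the 10 genes in 22RV1 cells (PER2, CRY2, NR1D1 and BHLHE40 higher, DBP lower), against 32.1% of all genes, and 9 of 10 in DU145 cells (PER2, CRY1, CRY2 and NR1D2 higher; PER1, PER3, DBP, TEF and BHLHE40 lower), against 41.9%. Over the 10 genes the log2 change had a median of 0.22 in 22RV1 cells and of -0.27 in DU145 cells, with -0.01 and -0.05 over all genes. By fold alone, with no test, 4 genes were past 1.5-fold in 22RV1 vector cells (36.5% of all genes at a mean normalised count of 10 or more) and 4 in 22RV1 PAGE4 cells (29.0%), in both cases PER2, NR1D1, DBP and BHLHE40. In DU145 cells it was 7 in vector cells (41.6%) and 7 in PAGE4 cells (42.4%), in both cases PER1, PER2, PER3, NR1D2, DBP, TEF and BHLHE40. Without the vector pair, 3 genes passed in 22RV1 cells (PER2, DBP and NR1D2), and without the PAGE4 pair 4 passed in DU145 cells (PER1, NR1D2, DBP and BHLHE40), where DESeq2's Wald test called 6, without PER3, CRY1 and CRY2. In the common test CRY2 and NR1D1 lost their calls when any pair was left out, whereas PER2 and DBP passed in all 8 alternatives. Scaling to total counts moved all log2 changes with H2O2 in 22RV1 cells by 0.13 to 0.15, which turned the sign of NR1D2 in vector cells and of PER1 in PAGE4 cells, both near 0.

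**Figure D2:**
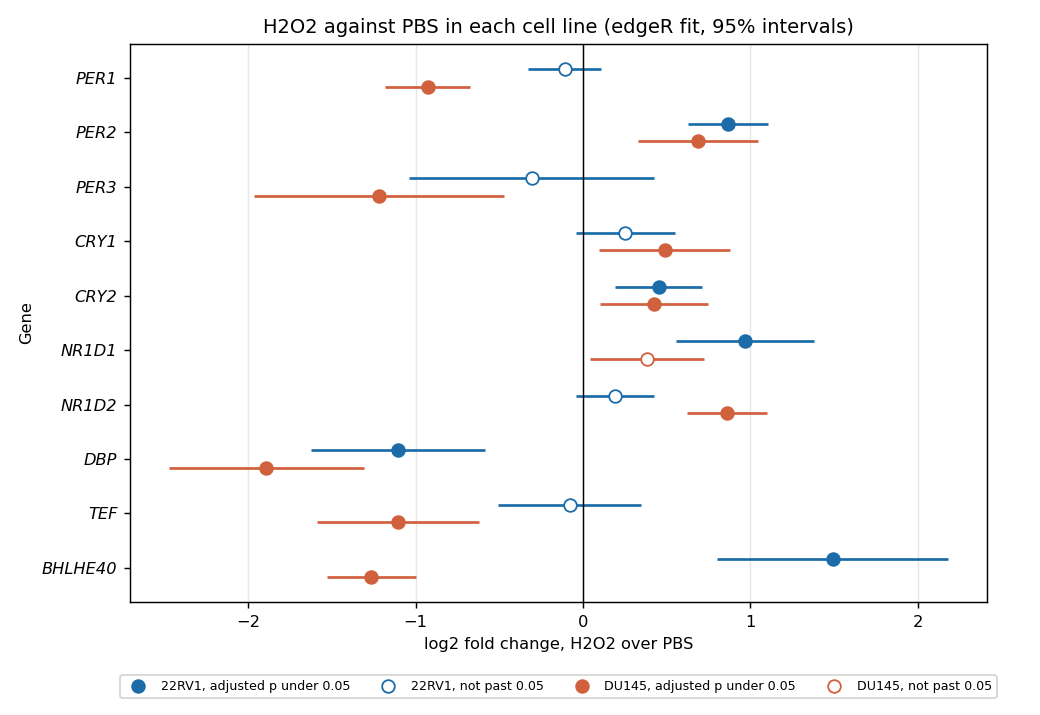
Log2 fold change of each gene with H2O2 over PBS in 22RV1 and DU145 cells (edgeR, bars are 95% intervals, filled points have an adjusted p under 0.05). PER2 and CRY2 lie above 0 and DBP below 0 in both lines, while BHLHE40 lies at 1.49 in 22RV1 and -1.26 in DU145 cells.

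The difference in H2O2 response between the lines was tested directly. It passed for 4 of the 10 genes, against 19.5% of all genes. BHLHE40 had the widest gap of the 10, 2.76 ± 0.35 on the log2 scale (22RV1 minus DU145, adjusted p = 1.4e-05), followed by TEF with 1.03 ± 0.31 (adjusted p = 0.024), PER1 with 0.82 ± 0.16 (adjusted p = 0.0011) and NR1D2 with -0.67 ± 0.16 (adjusted p = 0.0055). Without the DU145 PAGE4 pair, the difference passed for BHLHE40 and PER1, while NR1D2 was at -0.52 (adjusted p = 0.15) and TEF at 0.67 (adjusted p = 0.33). TEF also missed the test without the 22RV1 PAGE4 pair, at 0.62 (adjusted p = 0.20). The response of NR1D1 differed by 0.59 with an adjusted p of 0.12, so its call in 22RV1 cells alone does not show a difference between the lines. For PER2 the difference was 0.18 (95% interval -0.26 to 0.61) and for CRY2 0.03 (-0.39 to 0.45).

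PAGE4 was then compared with vector, to ask whether the construct moved the clock genes. DBP in 22RV1 cells was the gene that passed. It was at 277 in PAGE4 cells against 159 in vector cells with PBS, and at 141 against 64.9 with H2O2, a log2 difference of 0.91 ± 0.25 (adjusted p = 0.036, edgeR), so 1 of the 10 genes was called, against 5.20% of all genes. Without the pair of 22RV1 libraries with H2O2 the difference was 0.79 with an adjusted p of 0.15, and DESeq2's Wald test gave 0.94 with an adjusted p of 0.12. TEF, the other D-box activator gene, was at 392 against 314 with PBS and 460 against 231 with H2O2, a difference of 0.62 ± 0.20 (adjusted p = 0.093), and CRY1 at 808 against 911 and 814 against 1235, a difference of -0.42 ± 0.14 (adjusted p = 0.11). In the 22RV1 pair with H2O2 alone, the log2 fold was 1.11 for DBP, 0.99 for TEF, 0.43 for NR1D2 and -0.60 for CRY1. Each of these folds rests on 1 library a construct.

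In DU145 cells, 0 of the 10 genes passed the edgeR test of PAGE4 against vector, against 0.323% of all genes. At an unadjusted p under 0.05 there was 1, PER2, at 0.40 with an interval of 0.04 to 0.76, and DESeq2 called 0. The test common to both lines also called 0 genes, against 0.136% of all genes, with 1 at an unadjusted p under 0.05 (DBP, 0.61) and 0 in DESeq2. The difference in the PAGE4 effect between the lines called 0, against 2.49% of all genes, with 2 at an unadjusted p under 0.05 (PER2 and CRY1) and 0 in DESeq2, so the DBP value in 22RV1 cells was not shown to differ from the 0.22 (-0.35 to 0.79) in DU145 cells. By fold alone, the genes past 1.5-fold in 22RV1 cells were DBP and BHLHE40 with PBS, 2 of 10 against 17.9% of all genes, and CRY1, DBP and TEF with H2O2, 3 of 10 against 21.4%. In DU145 cells there were 0 with PBS, against 16.9%, and 1 with H2O2, DBP, against 16.9%. Whether PAGE4 altered the response to H2O2 was tested in a fit added after the values had been seen. It called 0 of the 10 genes, against 0.0404% of all genes, with 1 at an unadjusted p under 0.05 (NR1D2, 0.34 with an interval of 0.03 to 0.65) and 0 in DESeq2.

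**Figure D3:**
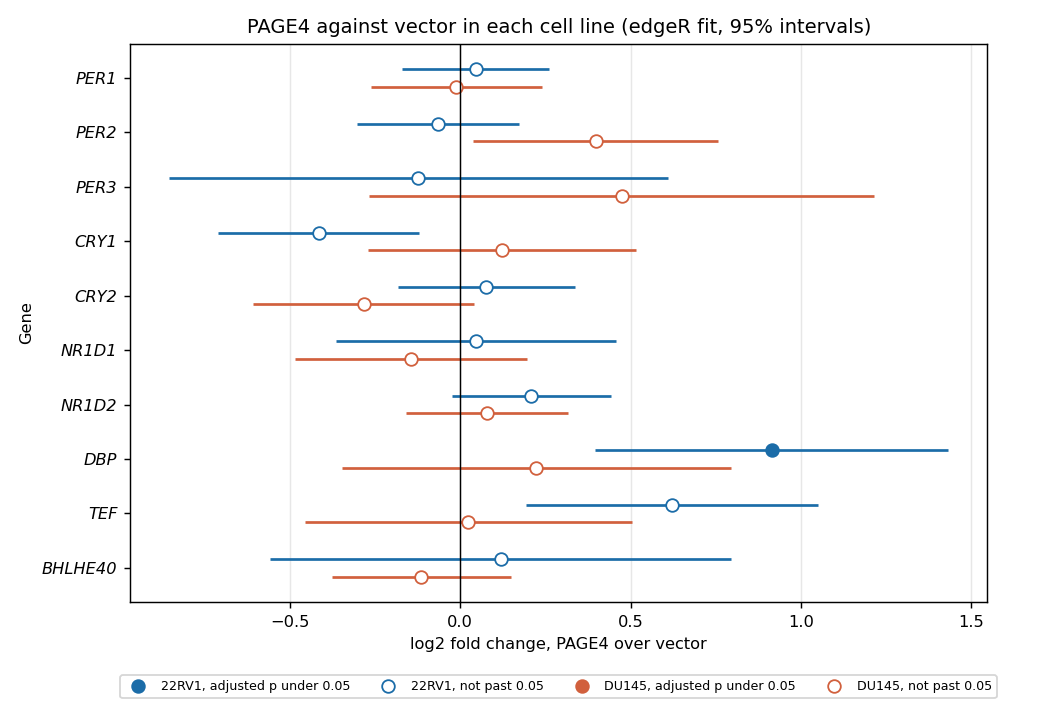
Log2 fold change of each gene in PAGE4 cells over vector cells in 22RV1 and DU145 cells (edgeR, bars are 95% intervals, filled points have an adjusted p under 0.05). DBP in 22RV1 cells, at 0.91, is the single filled point, and the other 22RV1 and DU145 points lie between -0.42 and 0.62.

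The other 21 clock genes, a list of activators, kinases, ligases and targets, were described by the same tests. Between the lines 15 of 21 differed, 8 higher and 7 lower in 22RV1 cells, against 63.2% of all genes. ARNTL, which encodes BMAL1, was at a mean of 207 ± 29.0 (SD, n = 4) in 22RV1 cells and 1223 ± 68.0 in DU145 cells, a log2 difference of -2.56 ± 0.15 (adjusted p = 5.9e-06), and its relatives ARNTL2 and NPAS2 differed by -1.58 and -1.04. CLOCK was higher in 22RV1 cells by 0.70. NFIL3, the repressor that competes with DBP and TEF at D-boxes, had a log2 difference of -3.29, at 152 ± 62.4 against 1478 ± 539. BHLHE41, which encodes DEC2, went the other way from BHLHE40, with 148 ± 54.6 in 22RV1 cells against 19.6 ± 16.1 in DU145 cells, a difference of 3.17. CIART, a repressor of CLOCK and BMAL1, was 4.45 higher in 22RV1 cells. RORB, a ROR receptor gene, was at 0 or 1 counts in every DU145 library and at 127 to 327 normalised counts in 22RV1 cells. CSNK1D and CSNK1E, kinases that act on the period proteins, and the deubiquitinase gene USP2 were lower in 22RV1 cells, with differences of -0.44, -0.59 and -1.96, and KLF9, PRKAA1, TIMELESS and WEE1 were higher, by 1.42, 0.71, 0.51 and 0.45.

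With H2O2, 7 of the 21 changed in the test common to both lines, against 23.0% of all genes, 5 higher (10.2%) and 2 lower (12.7%). NFIL3 rose by 0.97 ± 0.16 (adjusted p = 0.0066), opposite to DBP, and BHLHE41 by 1.43 ± 0.34 (adjusted p = 0.024), while TSC22D3, KLF10 and NAMPT rose by 1.24, 0.74 and 0.37. TIMELESS, which also acts at replication forks, fell by 0.88 ± 0.09 (adjusted p = 0.0015) and KLF9 by 0.70. In 22RV1 cells 10 of 21 passed, against 32.1% of all genes, 5 in each direction, with ARNTL2 (-0.74), WEE1 (-0.68) and CLOCK (-0.26) lower beside the 7 of the common test. In DU145 cells 9 passed, against 41.9%, 7 higher and 2 lower, with CSNK1D and CSNK1E higher by 0.35 and 0.33 beside the 7 of the common test. ARNTL itself was at 224 and 230 in 22RV1 vector cells with PBS and H2O2, at 208 and 166 in PAGE4 cells, and at 1139 to 1302 in DU145 cells, and it did not pass in either line. With PAGE4, 2 of the 21 passed in 22RV1 cells, KLF9 (0.67) and NAMPT (-0.44), against 5.20% of all genes, and 0 in DU145 cells, against 0.323% (2 at an unadjusted p under 0.05, edgeR). The medians of the 21 log2 changes with H2O2 were 0.12 in 22RV1 cells and 0.09 in DU145 cells.

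**Figure D4:**
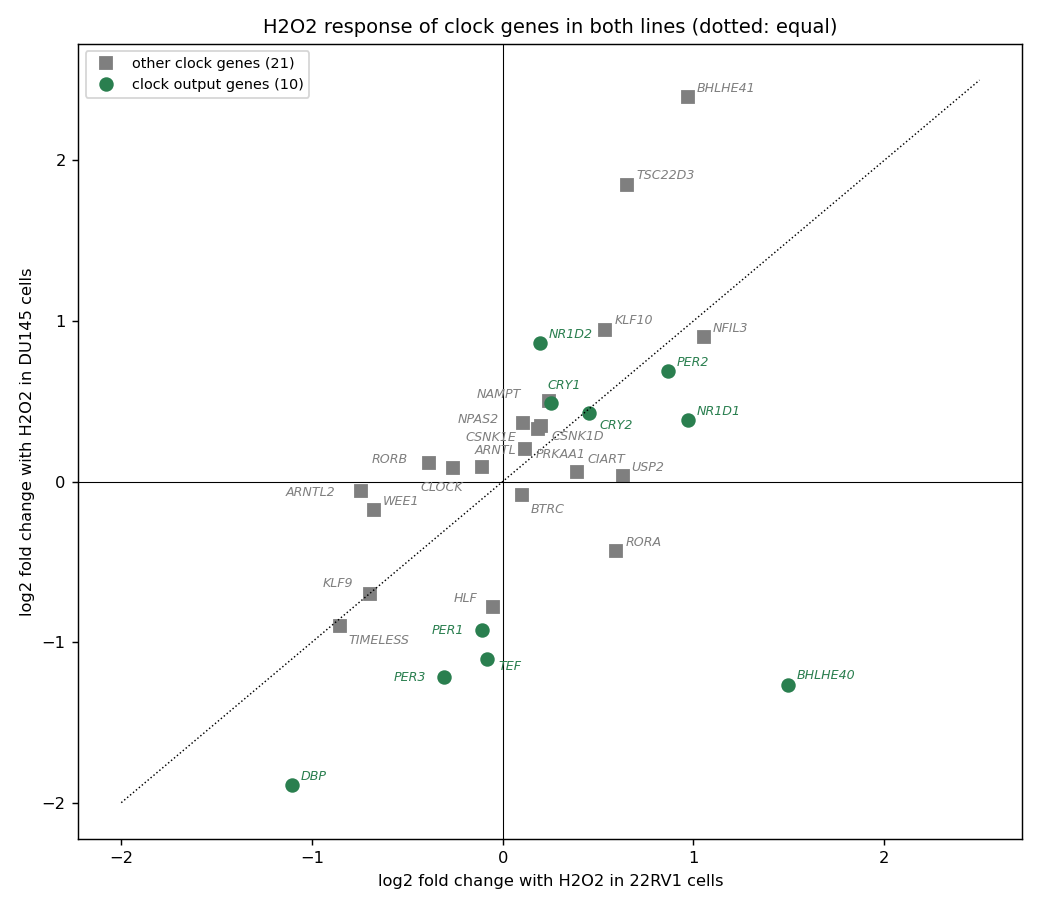
Log2 fold change with H2O2 in 22RV1 cells (x axis) and in DU145 cells (y axis) for the 10 clock output genes (circles) and the 21 other clock genes (squares), with the dotted line marking equal change. PER2 lies near the line, BHLHE40 lies at 1.49 and -1.26, and RORB had 0 or 1 counts in DU145 cells.

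The genes whose levels followed each clock gene most closely over the 8 libraries were found among 12388 genes with a mean normalised count of at least 50 in both lines, as a description with no test. Since the libraries fall into 2 cell lines, a gene that differs between the lines shares most of its pattern with any other gene that does, and the 8 points are not independent of that split. The 2 nearest genes were MORN1 (Pearson's r = 0.999) and PIDD1 for PER1, PSMC2 (0.996) and HTR7P1 for PER2, PRR14L (0.998) and LRCH4 for CRY1, TNKS (0.996) and FAT1 for CRY2, YEATS2 (0.998) and RFX7 for NR1D1, and KIFC3 (0.997) and APBB1 for BHLHE40. For the 4 genes whose lines overlapped they were APH1A (0.984) and AC083899.3 for PER3, NKAP (0.960) and DRG1 for NR1D2, ZSWIM5 (0.995) and FLOT2 for DBP, and DOCK6 (0.987) and ANAPC7 for TEF.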

How the data were processed

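RNA-seq counts of 8 libraries were used. Per the submitters' processing notes, alignment to GRCh38 used HISAT2 2.1.0 and featureCounts 1.6.0 assigned reads to genes. The authors deposited unnormalised raw counts, with 1 table for each line. The strand setting, annotation release and treatment of reads with several hits are not given in the sources used here. Tests used the quasi-likelihood method in edgeR 4.0.16 (R 4.3.3), with TMM normalisation, filterByExpr, blocks of paired libraries and Benjamini-Hochberg adjustment over the 19784 genes kept, and a call was an adjusted p under 0.05. SE is the log2 fold change divided by the square root of F. Displayed levels were divided by DESeq2 1.42.0 size factors over all 8 libraries, and pair folds used a pseudocount of 0.5, a limit of 1.5-fold, a mean of at least 10 over a line's 4 libraries and Clopper-Pearson 95% intervals, which cover counting error only. The scripts were tested on simulated data. Alternatives were DESeq2 size factors, no filter, DESeq2's Wald test, the cell line as the block, other scalings, pseudocounts and limits, and each pair left out. All 10 members were named, with other clock genes that passed a test, the 2 genes most like each member and the check genes. The members and lists were chosen with earlier results of these data known, and part of the list of other clock genes is not reported here. Exon lengths and overlaps are from GENCODE release 44 and promoters from RefSeq, found for all 10 genes.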

Additional observations from a re-analysis of the deposited data

Results flagged for a closer look

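The test of the H2O2 response between the lines (22RV1 minus DU145, log2 scale, edgeR with Benjamini-Hochberg adjustment over all genes) passed for 4 of the 10 clock output genes, against 19.5% of all genes. The values were 2.76 for BHLHE40, 1.03 for TEF, 0.82 for PER1 and -0.67 for NR1D2. Over the alternatives TEF ranged from 0.62 to 1.38 and NR1D2 from -0.92 to -0.52, and their calls did not hold with every pair left out, as given above. BHLHE40 in 22RV1 cells rests on 10 to 43 counts a library.

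The same test passed for 2 of the 21 other clock genes, where 19.5% of all genes passed. The differences were -0.50 for WEE1, a cell cycle kinase, and -1.19 for TSC22D3, a glucocorticoid target. TSC22D3 went from 231 to 902 normalised counts in DU145 vector cells and from 234 to 804 in DU145 PAGE4 cells, against 406 to 778 and 442 to 548 in 22RV1 cells.

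The PAGE4 effect differed between the lines for KLF9 (1.01, adjusted p = 0.01, edgeR) and NAMPT (-0.53, adjusted p = 0.012). KLF9 was at 771 in vector cells and 1237 in PAGE4 cells with PBS in 22RV1 cells, but at 429 and 305 in DU145 cells. NAMPT, the enzyme that recycles NAD, was at 5702 and 4031 in 22RV1 cells with PBS and at 5167 and 5306 in DU145 cells. No group held more than 1 library a condition, so no library could be compared with repeats of its own condition.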

How the results depend on the processing

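The labels give no replicate numbers, and the blocks in the fits are pairs of matched conditions. Over the alternatives, 92 counts of members stayed within 1.5 times the reported count and 16 moved, and of the single-gene values 524 kept direction and side of the threshold, 17 gained a call, 31 lost one and 28 changed sign, all of them values that did not pass as reported. For PAGE4 in 22RV1 cells the count of 1 became 2 with no filter (DBP and TEF) and 0 with DESeq2's Wald test. It also moved when a pair was left out, which leaves 1 library a construct in that line. With a pair left out, the counts for H2O2 were 2 to 3 in the common test, 3 to 5 in 22RV1 cells, 4 to 6 in DU145 cells and 2 to 4 for the difference between the lines, and 0 to 1 for the PAGE4 difference (TEF, without the 22RV1 PBS pair). At a limit of 2-fold, the count was 0 for H2O2 in 22RV1 PAGE4 cells, 3 in DU145 vector cells (BHLHE40, DBP and PER3), 1 for PAGE4 in 22RV1 cells with PBS (BHLHE40), 1 with H2O2 (DBP) and 0 in DU145 cells with H2O2. With a mean of at least 50, PAGE4 in 22RV1 cells with PBS had 1 (DBP). Leaving out a pair leaves fewer libraries, and the cause of the other shifts was not tested. With no filter, DESeq2's Wald test or the cell line as the block, the common H2O2 test called 6 of the 10. The share of all genes called was computed for the main fits only. Counts of members under the alternatives, with a pair left out or otherwise, therefore cannot be set against such a share. Values that changed sign were the line difference of CRY2 with H2O2, at -0.0096 with DESeq2 size factors, -0.058 with no filter and -0.010 with DESeq2's Wald test, and BHLHE40 in the common H2O2 test, at 0.048 with the Wald test. With a pair left out, the values that crossed 0 ranged as follows. For H2O2 they were BHLHE40 in the common test (-0.92 to 0.040), TEF (-0.44 to 0.24) and NR1D2 (-0.016 to 0.37) in 22RV1 cells, and CRY2 between the lines (-0.061 to 0.035). For PAGE4 they were PER1 (-0.0097 to 0.061) and NR1D1 (-0.17 to 0.0062) in the common test, NR1D1 (-0.25 to 0.43), BHLHE40 (-0.37 to 1.15) and PER1 (-0.014 to 0.14) in 22RV1 cells, and TEF (-0.39 to 0.33), PER1 (-0.14 to 0.090), NR1D2 (-0.084 to 0.22) and DBP (-0.037 to 0.64) in DU145 cells. The PAGE4 difference between the lines crossed 0 for NR1D1 (-0.11 to 0.57), BHLHE40 (-0.26 to 1.25), PER1 (-0.042 to 0.19) and NR1D2 (-0.054 to 0.34), and 22RV1 against DU145 for NR1D2 (-0.10 to 0.16). BHLHE40 in 22RV1 cells rests on 10 to 43 counts a library, PER3 on 29 to 101 and DBP on 33 to 357.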
